A study of Mus musculus with 8 samples.

Results

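The cells described here were taken as endocardial and large-vessel endothelial cells, an identity that was not shown for each of them. They came from adult mouse hearts after sham surgery or under pressure overload. The cells were chosen by their unique molecular identifier counts (UMIs, 1 for each captured RNA molecule) in 4 single-cell RNA-seq libraries. Barcodes with 200 to 6000 detected genes, 500 to 30000 UMIs and under 15% of UMIs from mitochondrial genes were kept. A kept barcode was a member when Pecam1, Cdh5 and Egfl7 together gave at least 2 UMIs, Npr3 and Vwf together at least 3, and Ptprc and Pdgfra none. This left 460 of 27053 kept barcodes, or 1.70%. Members with an Npr3 UMI (271) were called Npr3+ cells and the others (189) Vwf+ Npr3- cells. Both were set against 823 capillary cells, which passed the same endothelial conditions with at least 3 UMIs of Gpihbp1 and Rbp7 and under 3 of Npr3 and Vwf. These 9 genes chose the cells, so their levels are a description and none of them was tested.

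The endocardium is the endothelial lining of the heart chambers and valves, and it is set apart from capillary endothelium by the natriuretic peptide clearance receptor Npr3. Vwf, the von Willebrand factor that tethers platelets, is stored in endothelial granules, and in the heart it marks endocardium, veins and larger arteries more than capillaries. Capillary endothelium of heart muscle is known for taking up fatty acids, through Gpihbp1, Cd36 and Fabp4, to feed cardiomyocytes.

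All hearts came from wild type male C57BL/6J mice aged 8 weeks at surgery. In transverse aortic constriction (TAC) a silk ligature narrows the aortic arch and raises the load on the left ventricle, and sham mice had the same operation without the ligature. Sham hearts and hearts taken 2, 4 or 6 weeks after TAC (TAC-2w, TAC-4w, TAC-6w) gave 1 library and 1 Visium spatial section each, from a number of hearts that the labels do not give, so no difference between conditions could be tested. By the labels batch 1 held the TAC-2w library, batch 2 that of TAC-4w and batch 3 those of TAC-6w and sham, so that batch and time cannot be told apart for TAC-2w and TAC-4w.

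Where 4 values follow each other, they run from sham through the TAC libraries by time after surgery. The libraries held 10275, 7924, 8420 and 5854 barcodes with 86671674, 78587992, 48278486 and 28793316 UMIs, of which 8228, 6501, 6747 and 5577 barcodes were kept. Pairs of libraries shared between 9 and 21 kept barcode sequences, and no member barcode was shared. The TAC-4w library stood apart from the others. It held 262 fibroblasts, here barcodes with a Pdgfra UMI and none of Ptprc, Pecam1, Cdh5 or Egfl7, against 3227, 2376 and 2031 in sham, TAC-2w and TAC-6w, and only 5 Npr3+ cells. The sum of those 5 cells is printed with the other values but lies outside every fit.

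Members were a small share of each library. They made up 2.19% of kept barcodes in sham (180 cells, exact Clopper-Pearson 95% interval 1.88 to 2.53), 1.80% in TAC-2w (117 cells, 1.49 to 2.15), 1.73% in TAC-4w (117 cells, 1.44 to 2.07) and 0.825% in TAC-6w (46 cells, 0.604 to 1.10). The sham, TAC-2w and TAC-4w intervals overlapped and that of TAC-6w lay below all of them. The order changed when depth was made equal: with each cell thinned to 1000 UMIs before the rule, the shares were 0.786%, 0.7935%, 0.219% and 0.225%, so that TAC-4w stood level with TAC-6w. Such intervals cover counting error only, not the spread between mice. Of the barcodes that passed the endothelial conditions, members were 40.1%, 22.3%, 24.0% and 21.6%, so with that denominator sham stood above all 3 TAC libraries.

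The makeup of the members differed more than their number. Npr3+ cells were 154 of 180 members in sham (85.6%, 79.6 to 90.3), 95 of 117 in TAC-2w (81.2%, 72.9 to 87.8), 5 of 117 in TAC-4w (4.27%, 1.40 to 9.69) and 17 of 46 in TAC-6w (37.0%, 23.2 to 52.5). The share was high in sham and TAC-2w, lower in TAC-6w, and lowest in TAC-4w, with no overlap between these levels. Vwf+ Npr3- cells numbered 26, 22, 112 and 29. Sham and TAC-6w share a batch number, and with 1 library for each condition the cause of these differences was not tested.

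**Figure D1:**
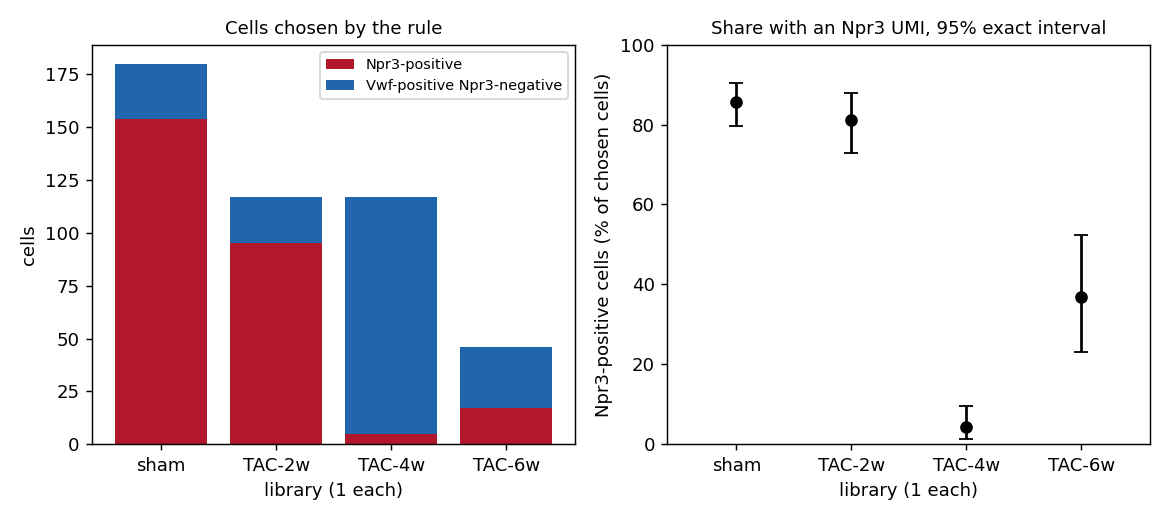
Left, the number of chosen cells in each of the 4 libraries, split into Npr3+ and Vwf+ Npr3- cells; right, the share of chosen cells with an Npr3 UMI, in percent, with its exact 95% interval. The share falls from 85.6% in sham to 4.27% in TAC-4w and stands at 37.0% in TAC-6w.

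The levels of the genes that chose the members were as follows, in counts per 1000000 UMIs of the summed cells (CPM). Npr3 stood at 1776, 1978, 239 and 1215 CPM in the Npr3+ cells. Vwf stood at 896, 929, 1275 and 1430 CPM in the same cells and at 1337, 1090, 839 and 1406 CPM in the Vwf+ Npr3- cells. Npr3 was therefore low in the TAC-4w Npr3+ cells alone, while the Vwf levels of both groups ran from 839 to 1430 CPM. Most Npr3+ cells also carried Vwf: 256 of 271 had UMIs of both genes and 15 had Npr3 only. The median Npr3+ cell held 16, 23, 1 and 8 Npr3 UMIs by library, and 8, 8, 15 and 6 Vwf UMIs.

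**Figure D2:**
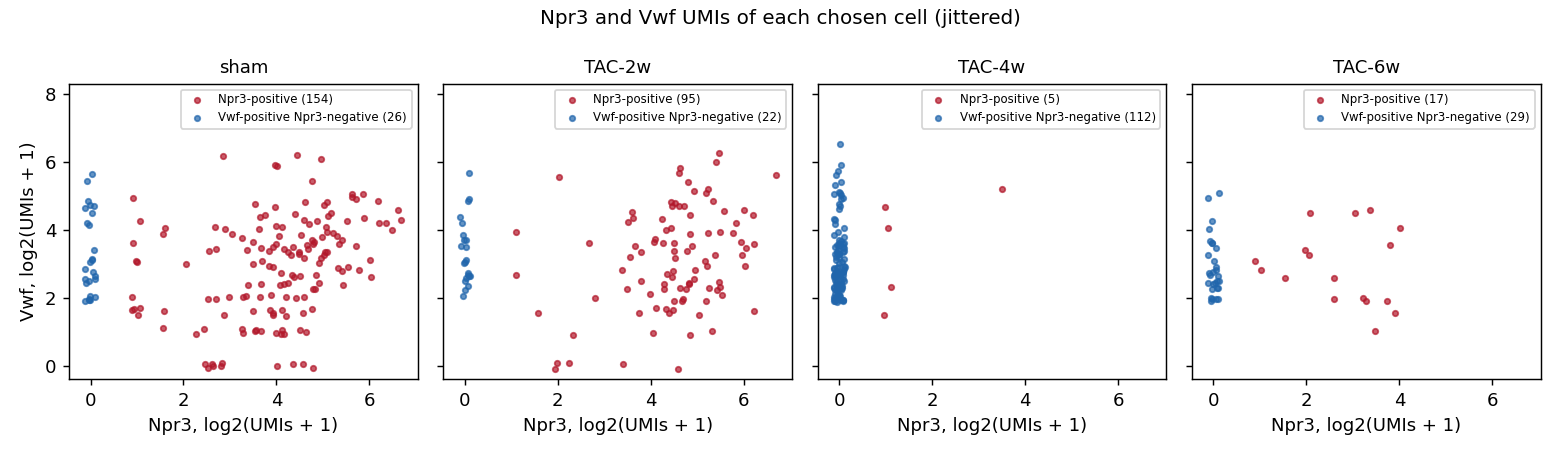
Each point is 1 chosen cell, placed by log2(UMIs + 1) of Npr3 (horizontal axis) and Vwf (vertical axis), with a small random shift; 1 panel for each library. In sham and TAC-2w most cells lie to the right at medians of 16 and 23 Npr3 UMIs, whereas 112 of the 117 TAC-4w cells lie at 0 Npr3 UMIs.

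Fibroblasts, which are not the cells chosen here, gave a measure of Npr3 UMIs outside the endothelium. An Npr3 UMI was found in 8.74%, 12.1%, 7.63% and 1.53% of fibroblasts, at 10.9, 12.9, 7.36 and 2.48 CPM and median depths of 10534, 12538, 13484 and 6296 UMIs. In leukocytes (barcodes with a Ptprc UMI and none of Pecam1, Cdh5 or Egfl7) the share was 1.45%, 1.50%, 0.140% and 0.0842%. After every cell was thinned to 1000 UMIs, Npr3 was still seen in 75.8%, 81.9%, 40.0% and 70.6% of Npr3+ cells and in 1.09%, 1.39%, 1.15% and 0.198% of fibroblasts. Every Npr3+ cell has an Npr3 UMI by the rule, so its share is a description and supports nothing. The median depths of the Npr3+ cells were 10336, 12579, 11786 and 6024 UMIs.

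The Npr3+ cells were also split by their number of Npr3 UMIs, a count the rule used, so the levels are a description. Cells with at least 10 Npr3 UMIs numbered 114, 84, 1 and 6, those with 3 to 9 numbered 26, 8, 0 and 8, and those with 1 or 2 numbered 14, 3, 4 and 3. Fabp4, a fatty acid carrier of capillary endothelium, stood at 1486 CPM in the 205 cells with at least 10 Npr3 UMIs and at 11317 CPM in the 24 cells with 1 or 2. Cd36 was likewise higher in the cells with 1 or 2 Npr3 UMIs in every library. Smoc1 was higher in those with at least 10 in sham, TAC-2w and TAC-6w, and had no UMI in the TAC-4w cells. Cytl1 and H19 followed no single order across libraries. Cytl1 stood at 1039 CPM in sham cells with at least 10 Npr3 UMIs and at 1575 CPM in those with 1 or 2, against 978 and 183 CPM in TAC-2w. H19 stood at 2310 and 3764 CPM in TAC-6w, against 634 and 295 CPM in sham. The 4 TAC-4w cells with 1 or 2 Npr3 UMIs held Fabp4 at 21033 CPM and Stmn2 at 1323 CPM, and had no UMI of Plvap, Nrg1 or Ahsg. The single TAC-4w cell with at least 10 held Plvap at 660 CPM, Nrg1 at 755 CPM and Fabp4 at 6696 CPM, and had no UMI of Smoc1, H19 or Cytl1.

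A count that did not use Npr3 was made over the same endothelial barcodes. Barcodes with at least 2000 CPM over 10 genes of the endocardium and its development numbered 154 in sham, 84 in TAC-2w, 11 in TAC-4w and 23 in TAC-6w, of 449, 525, 488 and 213 that passed the endothelial conditions. Of these, 133, 77, 1 and 13 had an Npr3 UMI. The number was again lowest in TAC-4w, where 10 of the 11 had no Npr3 UMI.

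At the threshold of the rule, 68 barcodes had an Npr3 and Vwf sum of 2 and stayed outside, and 40 had a sum of 3 and were members. Npr3 was present in 9 and 8 of them. Pooled over libraries, Plvap stood at 28.6 CPM outside and 94.2 CPM inside, from 35.2 and 366 CPM in sham to 15.5 and 0 CPM in TAC-4w, which held 31 and 21 of these barcodes. Pooled Mgp stood at 2356 and 2199 CPM, and pooled Fabp4 at 15087 and 15966 CPM, but the libraries differed in direction. Mgp was higher inside in sham (4167 and 5912 CPM) and TAC-2w (1981 and 4956 CPM). It was lower inside in TAC-4w (1148 and 787 CPM) and TAC-6w (7452 and 3300 CPM). Fabp4 was lower inside in sham (15647 and 12038 CPM), TAC-2w (7422 and 6507.5 CPM) and TAC-4w (17790 and 17715 CPM). In TAC-6w it was higher inside (11937 and 17172 CPM).

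The labels of the 2 groups were checked with genes that the rule did not use. In Npr3+ cells the endocardial genes Plvap, Nrg1 and Gata4 had UMIs in all 4 libraries. Smoc1 and Cytl1 were at 0 in TAC-4w, and Hapln1 was at 0 in all 4 libraries. In TAC-4w 1 of the 5 Npr3+ cells held all UMIs of Plvap and Nrg1. The other 4 had none, and each held at least 3 UMIs of Gpihbp1 and Rbp7, so an endocardial identity was not shown for them. The Vwf+ Npr3- cells were mixed in this respect. Of the 189, 136 also held at least 3 UMIs of the capillary genes Gpihbp1 and Rbp7 (11 of 26, 17 of 22, 92 of 112 and 16 of 29 by library), against 39 of the 271 Npr3+ cells. Selp, the P-selectin of veins, was found in 41 Vwf+ Npr3- cells and Gja5, the connexin of arteries, in 52, with both in 8 and neither in 104. A large-vessel identity was therefore not shown for each of these cells, and they are called by their rule.

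Which genes set Npr3+ cells apart from Vwf+ Npr3- cells was tested on sums of UMIs per library. The 2 groups and the capillary cells gave 11 sums, and edgeR's quasi-likelihood test with the library as a block was run on 9382 genes. Of these, 563 were higher in Npr3+ cells (6.00% of genes tested) and 908 lower (9.68%) at a Benjamini-Hochberg adjusted p under 0.05. The median log2 fold change over all genes was -0.005. Pooled folds of Npr3+ cells are over sham, TAC-2w and TAC-6w, which entered for both groups.

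Among the named genes higher in Npr3+ cells, Nrg1, the neuregulin ligand that the endocardium sends to the heart muscle, stood at 146, 196, 127 and 157 CPM in Npr3+ cells and at 0, 0, 0 and 5.96 CPM in Vwf+ Npr3- cells. Every Npr3+ sum was above every Vwf+ Npr3- sum, but the TAC-4w value came from 1 cell and the other 4 had no Nrg1 UMI. Over sham, TAC-2w and TAC-6w there were 557 pooled UMIs against 1 (112-fold, counting interval 19.9 to 4413, edgeR adjusted p = 9.08e-08). With DESeq2 the call on Nrg1 was lost, in this comparison and against capillary cells. Comp, a matrix protein first known from cartilage, stood at 318, 455, 15.9 and 421 CPM against 0 in all 4 Vwf+ Npr3- sums, which was at least 84.2-fold higher by a floor of 3 UMIs over the pooled libraries (adjusted p = 4.86e-08). Ptgs2, the inducible cyclooxygenase, stood at 546, 419, 0 and 68.6 CPM against 11.9, 19.8, 1.38 and 11.9 CPM (32.3-fold, 17.5 to 67.5; adjusted p = 8.07e-08). Ptgs2 was thus high in the Npr3+ cells of sham and TAC-2w, several times lower in those of TAC-6w, and absent from the 5 TAC-4w cells.

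H19, an imprinted long noncoding RNA, stood at 587, 602, 0 and 2174 CPM in Npr3+ cells and at 7.94, 0, 10.3 and 0 CPM in Vwf+ Npr3- cells (2154 pooled UMIs against 2; 216-fold, 59.6 to 1782; adjusted p = 1.85e-07). The TAC-6w Npr3+ cells had the highest H19 level and the 5 TAC-4w cells had none. The other named genes that were higher were the lectin Colec11 (158, 159, 0 and 225 CPM), the transporter Slc45a3, the alcohol dehydrogenase Adh6b, the lipase inhibitor G0s2, Islr and the LIM-domain protein Fhl2, with 0 or 1 pooled UMI in Vwf+ Npr3- cells.

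Among the named genes lower in Npr3+ cells, Sema3g and Gja5 were on the arterial list. Sema3g, a semaphorin of arterial endothelium, stood at 0.524, 0, 239 and 0 CPM in Npr3+ cells and at 202, 167, 373 and 488 CPM in Vwf+ Npr3- cells (1 pooled UMI against 175; adjusted p = 3.55e-12). Gja5 stood at 1.57, 0, 287 and 0 CPM against 194, 143, 144 and 268 CPM (3 pooled UMIs against 130; adjusted p = 3.24e-09). Ly6c1, a surface protein of small-vessel endothelium, stood at 17.8, 30.5, 3267 and 0 CPM against 1853, 2078, 3459 and 3598 CPM (106-fold, 84.2 to 136; adjusted p = 2.35e-13). In all 3 genes the sham, TAC-2w and TAC-6w Npr3+ sums lay near 0 and below every Vwf+ Npr3- sum, whereas the 5 TAC-4w cells lay within the range of the Vwf+ Npr3- sums for Sema3g and Ly6c1 and above all of them for Gja5. Capillary cells held Sema3g as well, at 194, 131, 349 and 241 CPM. Alpl, Eps8l2, Adra2c, Kank4 and Serpini1 had no UMI in the pooled Npr3+ cells, which was at least 71.6-fold, 78.2-fold, 44.9-fold, 26.6-fold and 11.7-fold lower. Without cells holding transcripts of other cell types, which left Npr3+ cells from sham alone, the calls on Gja5, Alpl, Eps8l2 and Sema7a were lost. Lower levels in Npr3+ cells were still fitted for each. The spread in that fit came from the other groups, so the lost calls do not measure a dependence on the cells left out.

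The counts moved with the cells and libraries used. Without the sham library 316 genes were higher, and without TAC-2w 238 were higher and 523 lower, with the Npr3+ side then resting on 2 sums. When the 136 Vwf+ Npr3- cells with at least 3 UMIs of Gpihbp1 and Rbp7 were left out, 170 genes were higher and 315 lower. Without cells holding transcripts of other cell types, Npr3+ cells were left in the fit from sham alone. The spread then came from the other groups, so no count for Npr3+ cells is read from that fit. The cause of the changes in these counts was not tested.

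**Figure D3:**
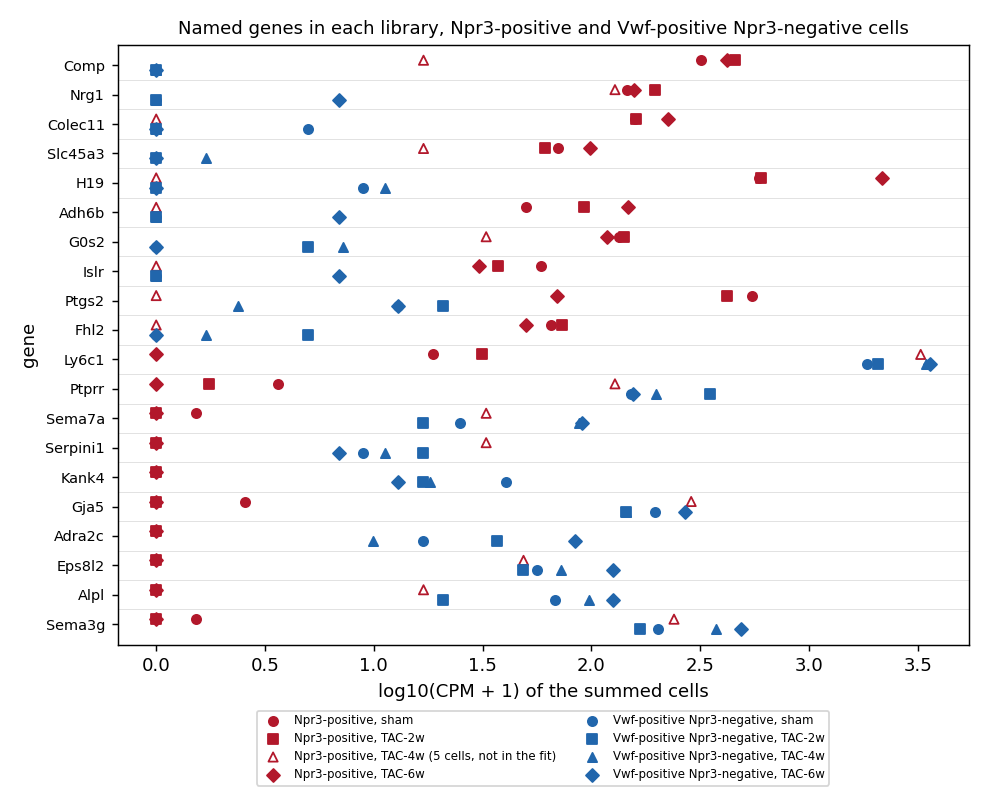
Level of each named gene in the summed Npr3+ (red) and Vwf+ Npr3- (blue) cells of each library, as log10(CPM + 1); the open triangle is the TAC-4w sum of 5 Npr3+ cells, which was not fitted. Genes named as higher in Npr3+ cells lie further right in red and those named as lower further right in blue, and the open triangle lies within the range of the blue points for Ly6c1 and Sema3g and just above it for Gja5.

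Against capillary cells, Npr3+ cells differed in more genes: 1148 were higher (12.2% of 9382) and 1453 lower (15.5%). Ahsg, the gene of the plasma glycoprotein fetuin-A, stood at 887, 1022, 79.7 and 823 CPM in Npr3+ cells and at 2.38, 4.56, 0 and 0 CPM in capillary cells (299-fold, 158 to 656; adjusted p = 9.85e-13). Vwf+ Npr3- cells stood at 95.2, 35.7, 2.06 and 0 CPM, between both in the first 3 libraries and level with capillary cells in TAC-6w. Smoc1, a secreted matrix protein that modulates BMP signals, stood at 295, 228, 0 and 167 CPM against 2.38, 0, 0 and 0 CPM (888 pooled UMIs against 2; adjusted p = 9.62e-13). Both genes were high in the Npr3+ cells of the 3 fitted libraries and near 0 in all capillary sums. Nrg1 had no UMI in capillary cells and was at least 159-fold higher, and Hamp, the iron hormone hepcidin, was at least 65.8-fold higher.

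The remaining named genes higher than in capillary cells were Col23a1, a membrane collagen; Ephx2, the soluble epoxide hydrolase; Cyp1b1, a cytochrome P450; Plagl1, an imprinted zinc finger factor; Art4; and Pla2g4a, the phospholipase that frees arachidonic acid. Their pooled folds ran from 75.5 (Pla2g4a, 25.6 to 368) to 147 (Ephx2, 57.2 to 541). Those lower included Car4, the carbonic anhydrase on capillary surfaces, at 1.05, 0.744, 0 and 0 CPM against 196, 240, 220 and 202 CPM (247-fold, 84.1 to 1200; adjusted p = 6.19e-13). Sema3g, Alpl, Sema7a, Eps8l2, Scgb3a1, Apln, Ssu2, Nos2 and Thrsp completed the list. The calls on Apln, Ssu2 and Nos2 were among those lost without cells holding transcripts of other cell types. Npr3+ cells then came from sham alone, so the lost calls do not measure a dependence on the cells left out. Without the sham library 691 genes were higher and 928 lower, and without TAC-2w 604 and 837.

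These 2 genes are shown by their promoters, since Npr3 chose the cells and Ahsg was among the genes named as higher in Npr3+ cells. The sequences are from RefSeq on GRCm38.p6 and run from 250 bases before to 50 bases after the gene start, in lower case with any AGATAA, the GATA motif, in capitals on either strand. Npr3 lies at chr15:11907322-11907621 on the minus strand and Ahsg at chr16:22891765-22892064 on the plus strand.
Npr3: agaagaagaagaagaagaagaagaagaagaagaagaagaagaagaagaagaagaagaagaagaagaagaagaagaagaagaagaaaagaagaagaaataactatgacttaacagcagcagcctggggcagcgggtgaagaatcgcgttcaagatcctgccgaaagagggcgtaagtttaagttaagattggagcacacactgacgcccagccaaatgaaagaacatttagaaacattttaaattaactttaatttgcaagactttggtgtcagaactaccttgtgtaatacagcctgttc
Ahsg: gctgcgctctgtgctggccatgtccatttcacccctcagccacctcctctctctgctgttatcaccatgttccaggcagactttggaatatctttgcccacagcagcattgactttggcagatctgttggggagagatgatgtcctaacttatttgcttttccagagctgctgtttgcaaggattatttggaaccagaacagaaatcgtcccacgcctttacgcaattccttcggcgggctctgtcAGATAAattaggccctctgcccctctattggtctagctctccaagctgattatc
The Npr3 stretch holds no AGATAA and the Ahsg stretch holds 1. Of the 19 genes named as higher in Npr3+ cells, 13 had a total of 16 promoters in the table, and 5 of the 16 (1 each of Colec11, Fhl2, Ahsg, Hamp and Art4) held AGATAA, against 11.2% of all 32851 promoters. CGGAAG, an ETS core, was in 0 of the 16 and in 16.9% of all promoters, counted on both strands. A match is a description of the letters and not a binding site.

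The genes closest to Npr3 and to Vwf were ranked over the 460 members, by the mean over the 4 libraries of the Pearson correlation of log-normalized values among 8271 genes. By this mean Ahsg came first with Npr3 (mean r = 0.698; 0.558, 0.660, 0.806 and 0.768 by library), and Comp (0.640), Apoe (0.604) and Plagl1 (0.573) were among the next. Ccn2 came first with Vwf (0.360), followed by Nt5e (0.304), Cit (0.301), Il6st (0.297) and Amigo2 (0.287). The order turned on TAC-4w, where 5 of 117 members held Npr3. Over the other 3 libraries Apoe came first with Npr3 (0.719) and Ahsg was the third (0.662), and Cit came first with Vwf (0.349) and Ccn2 was the fourth (0.322). Npr3 with Vwf gave -0.061 over the 4 libraries. Cells of a library share its depth and free RNA, and the rule itself ties Npr3 to Vwf, so these values are descriptions.

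Vwf+ Npr3- cells against capillary cells gave 426 higher (4.54%) and 375 lower genes (4.00%), with all 4 libraries in the fit and in the pooled folds, where TAC-4w holds 1454112 of the UMIs of Vwf+ Npr3- cells and the other libraries 252039, 252219 and 167885. Selp stood at 226, 194, 92.2 and 173 CPM in Vwf+ Npr3- cells and at 4.75, 0, 0.465 and 0 CPM in capillary cells (127-fold, 53.8 to 394; adjusted p = 2.29e-10), where the pooled fold was 473 without sham and 81.8 without TAC-2w. Cytl1, a small secreted cytokine-like protein, stood at 2305, 920, 175 and 768 CPM against 52.3, 4.56, 6.04 and 0 CPM (44.1-fold, 34.3 to 57.7; adjusted p = 4.48e-10), and the pooled fold was 78.9 (59.5 to 107) without TAC-4w and 68.6 without sham. Sele, the E-selectin of activated endothelium, stood at 115, 119, 33.7 and 17.9 CPM against 3.57, 1.96, 0 and 0 CPM (43.7-fold, 19.4 to 122; adjusted p = 3.28e-07). The groups did not overlap in any of the 3 genes, and the TAC-4w sum, which holds 112 of the 189 cells, was the lowest for Selp and Cytl1.

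Gkn3, Cyp1b1, Bst1, Smoc1, Ctsh and Nt5e were also higher, with pooled folds from 13.4 (Ctsh, 10.4 to 17.4) to 93.3 (Gkn3, 25.0 to 784). With 1 library left out at a time, the fold of Ctsh ran from 8.11 (without sham) to 27.9 (without TAC-4w) and that of Gkn3 from 56.7 (without TAC-2w) to 239 (without TAC-4w). Among the named genes that were lower, Mki67, a marker of dividing cells, stood at 3.97, 0, 0 and 0 CPM against 52.3, 28.0, 34.9 and 16.2 CPM (1 pooled UMI against 170; adjusted p = 8.52e-05). Rgs5, a pericyte gene, stood at 0, 3.96, 6.88 and 0 CPM against 486, 365, 13.0 and 140 CPM (41.0-fold, 22.8 to 82.5; adjusted p = 4.97e-04). TAC-4w supplied 10 of the 11 Rgs5 UMIs of Vwf+ Npr3- cells, and without it the pooled fold was 243 (43.5 to 9613), against 26.8 without sham and 27.2 without TAC-2w. The pericyte and smooth muscle markers, Rgs5 included, summed to 1332, 1004, 28.4 and 682 CPM in capillary cells and to 115, 95.2, 98.3 and 262 CPM in Vwf+ Npr3- cells, which was lower in sham, TAC-2w and TAC-6w and higher in TAC-4w, and their part in the result was not tested. Top2a, Cdk1, Tpx2, Prc1, Birc5 and Cdca8, genes of dividing cells, and Prnd and Rgs4 were also lower. Of these 8 calls, Top2a alone was kept when the Vwf+ Npr3- cells with at least 3 UMIs of Gpihbp1 and Rbp7 were left out, and the call on Mki67 was kept too. Of the 6 genes tested from the list of dividing cells, 4 were lower, and Tyms and Pcna were not called. The call on Rgs4 was the least firm (adjusted p = 0.047) and was lost under 7 of the alternatives tried, DESeq2 among them. Without the sham library 251 genes were higher and 189 lower, without TAC-2w 260 and 182, and without TAC-6w 247 were lower.

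Gene lists for endothelial classes and pathways, chosen with earlier results of these data known, are given next by their counts, beside the shares of all genes called above. Of 8 endocardial genes tested, 6 were higher in Npr3+ than in Vwf+ Npr3- cells and 7 higher than in capillary cells, with none lower. Nrg1 and Smoc1, counted among these, reached the 10 UMIs required for testing in Npr3+ sums alone. They could therefore not come out lower in Npr3+ cells, and their calls are no check of the label. Plvap, the diaphragm protein of fenestrae, stood at 1039.9, 1193, 112 and 1068 CPM in Npr3+ cells, 171, 151, 228 and 119 CPM in Vwf+ Npr3- cells and 8.32, 37.8, 13.5 and 2.02 CPM in capillary cells (log2 fold change 2.75 ± 0.28 SE, adjusted p = 2.81e-07, and 6.11 ± 0.30, adjusted p = 1.26e-12). The 3 groups formed separate levels apart from the 5 TAC-4w Npr3+ cells. Cytl1 did not separate the 2 member groups (-0.33 ± 0.30, adjusted p = 0.576), and Nfatc1, a transcription factor of the valve endocardium, passed no test (0.29 ± 0.27, adjusted p = 0.573, against Vwf+ Npr3- cells).

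All 14 capillary genes were lower in Npr3+ than in capillary cells, 12 of 14 were lower than in Vwf+ Npr3- cells, and 13 of 14 were lower in Vwf+ Npr3- than in capillary cells. Fabp4 stood at 1946, 1634, 18611 and 2390 CPM in Npr3+ cells, at 10915, 19665, 15997 and 12604 CPM in Vwf+ Npr3- cells and at 19448, 23803, 19555 and 19917 CPM in capillary cells. It was 2.85 ± 0.18 (SE) lower in Npr3+ than in Vwf+ Npr3- cells on the log2 scale (adjusted p = 1.23e-10). Its relative Fabp5 went the other way, at 4328, 4764, 1131 and 6621 CPM in Npr3+ cells against 702, 1467, 809 and 590 CPM in Vwf+ Npr3- cells (2.51 ± 0.20, adjusted p = 9.53e-09). Of 9 genes of fatty acid handling, Fabp5 was the one that was higher and 7 were lower, also against capillary cells.

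The median log2 fold change of the capillary list was -3.44 against Vwf+ Npr3- cells and -4.62 against capillary cells, beside -0.005 and -0.027 over all genes. Cd36, the fatty acid translocase, stood at 153, 189, 2008 and 147 CPM in Npr3+ cells and at 1238, 2149, 2486 and 1209 CPM in Vwf+ Npr3- cells (-3.32 ± 0.19, adjusted p = 4.91e-11). In both Fabp4 and Cd36 the 5 TAC-4w Npr3+ cells stood with the Vwf+ Npr3- cells.

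Of 13 arterial genes, 8 were lower and 1 (Bmx) higher in Npr3+ than in Vwf+ Npr3- cells, and 5 were higher and 3 lower in Vwf+ Npr3- than in capillary cells. Stmn2, a microtubule regulator, stood at 7.85, 4.46, 1100 and 9.79 CPM in Npr3+ cells, 508, 468, 676 and 1024 CPM in Vwf+ Npr3- cells and 389, 262, 530 and 439 CPM in capillary cells. The capillary cells therefore carried part of the arterial list. Bmx, a tyrosine kinase, stood at 330, 325, 15.9 and 264 CPM in Npr3+ cells and at 250, 107, 55.7 and 137 CPM in Vwf+ Npr3- cells (1.34 ± 0.31, adjusted p = 0.00378).

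Of 9 venous genes, 3 were higher, Nr2f2 and Vcam1 among them, and 4 (Selp, Aplnr, Il1r1 and Tmem252) lower in Npr3+ than in Vwf+ Npr3- cells. Vcam1, the adhesion molecule for lymphocytes and monocytes, stood at 826, 738, 526 and 1107 CPM against 698, 571, 282 and 226 CPM in the 2 member groups (0.96 ± 0.28, adjusted p = 0.0201). Against capillary cells, 6 of the 9 venous genes were higher in Vwf+ Npr3- cells and 1 lower, and 5 were higher and 2 lower in Npr3+ cells.

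**Figure D4:**
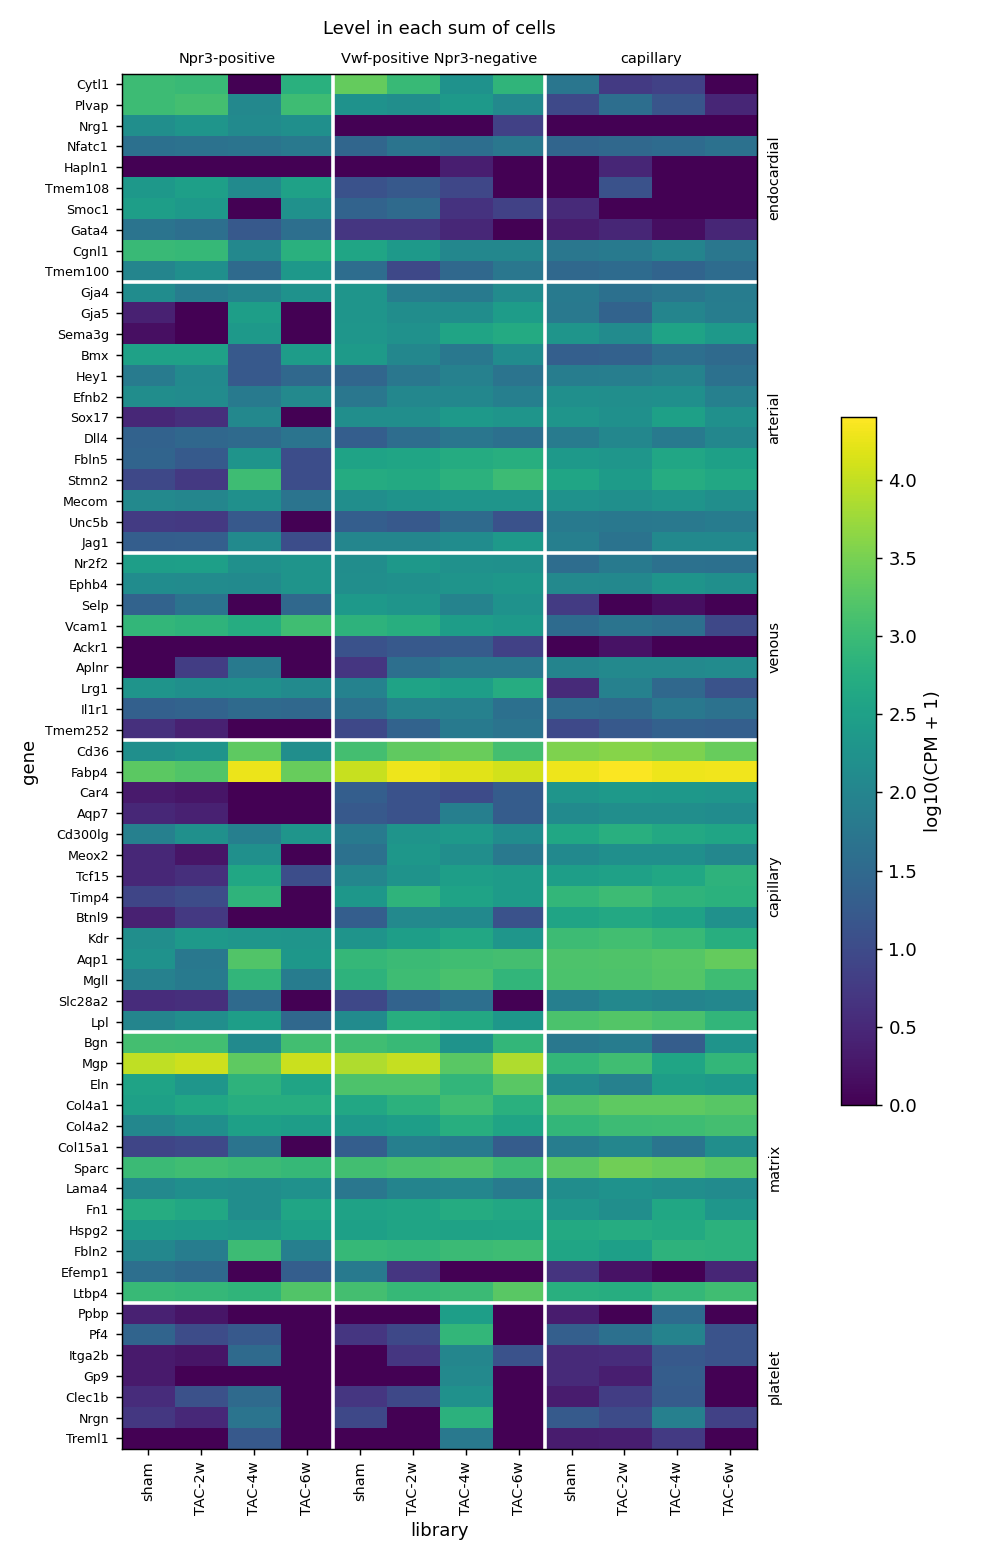
Level of genes from 6 lists (rows) in the 12 sums of cells (columns: 4 libraries for each of the Npr3+, Vwf+ Npr3- and capillary cells), coloured by log10(CPM + 1). Within the Npr3+ block Fabp4 and Cd36 are brightest in the TAC-4w column, and the platelet genes, such as Pf4 at 822 CPM, are brightest in the TAC-4w column of Vwf+ Npr3- cells.

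Of 14 general endothelial genes, 3 were higher and 7 lower in Npr3+ than in Vwf+ Npr3- cells. Cldn5, the claudin of endothelial tight junctions, stood at 17.8, 1.49, 606 and 0 CPM in Npr3+ cells against 817, 424, 376 and 1227 CPM in Vwf+ Npr3- cells (-5.97 ± 0.38, adjusted p = 1.85e-10). Emcn, the sialomucin endomucin, stood at 1383, 1489, 765 and 1597 CPM against 595, 615, 582 and 482 CPM (1.45 ± 0.14, adjusted p = 1.53e-07). Emcn was higher in every Npr3+ sum, the TAC-4w sum included, than in any Vwf+ Npr3- sum.

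Of 14 matrix genes, 8 were higher and 5 lower in Vwf+ Npr3- than in capillary cells (median log2 fold change 0.65), and 5 were higher and 7 lower in Npr3+ than in capillary cells (median -0.55). Eln, the elastin of large-artery walls, stood at 1456, 1511, 787 and 1900.1 CPM in Vwf+ Npr3- cells, 356, 205, 685 and 372 CPM in Npr3+ cells and 132, 84.7, 284 and 237 CPM in capillary cells (2.96 ± 0.27, adjusted p = 1.76e-07, Vwf+ Npr3- against capillary). Mgp, an inhibitor of calcification, stood at 9444, 11385, 2008 and 11381 CPM in Npr3+ cells and 7372, 10241, 1916 and 7511 CPM in Vwf+ Npr3- cells, against 824, 1113, 390 and 830 CPM in capillary cells. Both TAC-4w member sums were the lowest of their group for Mgp. The basement membrane collagens Col4a1 and Col4a2 were lower in both member groups than in capillary cells.

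Among pathway lists, BMP and TGF-beta genes were 6 higher and 3 lower of 16 in Npr3+ against Vwf+ Npr3- cells. The receptor Eng was higher at 1949, 2268, 829 and 3174 CPM against 766, 821, 1084 and 1173 CPM (1.43 ± 0.13, adjusted p = 3.71e-08), and the receptor Acvrl1 lower at 48.7, 46.8, 239 and 49.0 CPM against 186, 218, 259 and 292 CPM (-2.05 ± 0.18, adjusted p = 4.08e-08). The ligand Bmp6 was higher (1.29 ± 0.19, adjusted p = 3.34e-05) and the ligand Bmp4 lower (-2.62 ± 0.38, adjusted p = 3.13e-05). The ligands, the receptors and the Id target genes thus each held members that were higher and members that were lower. Of 9 Notch genes, Notch1 and its target Hes1 were higher and Notch4, Jag1, Jag2 and Dll1 lower.

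Of 12 genes of the VEGF and angiopoietin pathway, 2 were higher and 5 lower in Npr3+ than in Vwf+ Npr3- cells. Vegfc, the ligand of lymphatic growth, stood at 16.8, 15.6, 159 and 0 CPM in Npr3+ cells and at 107, 218, 265 and 262 CPM in Vwf+ Npr3- cells (-3.44 ± 0.35, adjusted p = 2.79e-07). Of 9 genes of natriuretic peptide and cyclic GMP signalling, Pde3a, a cyclic nucleotide phosphodiesterase, and Prkg1 were higher and Pde2a lower. The signalling receptors Npr1 and Npr2 did not pass the test (adjusted p = 0.051 and 0.969). Pde3a stood at 229, 202, 0 and 108 CPM in Npr3+ cells and at 111, 39.6, 0 and 0 CPM in Vwf+ Npr3- cells (1.89 ± 0.35, adjusted p = 4.39e-04), with no UMI in either TAC-4w sum.

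Of 9 genes of Weibel-Palade bodies and clotting besides Vwf, 5 were higher and 1 lower in each member group against capillary cells. Tfpi, the inhibitor of tissue factor, stood at 127, 152, 31.9 and 118 CPM in Npr3+ cells, 43.6, 67.4, 21.3 and 35.7 CPM in Vwf+ Npr3- cells and between 14.2 and 22.8 CPM in capillary cells. It was higher in Npr3+ than in Vwf+ Npr3- cells (1.62 ± 0.24, adjusted p = 3.93e-05). Of 7 genes of laminar shear stress, none was higher and 3 (Klf4, Thbd and Slc9a3r2) lower in Npr3+ than in Vwf+ Npr3- cells. Of 8 adhesion genes, 1 was higher and 6 lower in the same comparison. Of 8 mesenchymal genes, Zeb2 and Vim were higher and Snai2, S100a4 and Tagln lower.

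Markers of other cell types were measured in the same sums. The fibroblast genes Dcn, Lum and Col3a1 were higher in Npr3+ than in Vwf+ Npr3- cells, and none of the 7 fibroblast genes was lower. Dcn stood at 1388, 1747, 112 and 1077 CPM in Npr3+ cells and at 16106, 18247, 19215 and 11380 CPM in fibroblasts. Gsn stood at 454, 288, 15.9 and 68.6 CPM in Npr3+ cells and at 22157, 23266, 12307 and 16647 CPM in fibroblasts, and Col1a1 at 22.5, 19.3, 0 and 9.79 CPM against 1150.4, 1281, 1929 and 1326 CPM. Dcn was above Gsn in the Npr3+ cells of every library. In fibroblasts it was below Gsn in sham, TAC-2w and TAC-6w and above it in TAC-4w. The part of fibroblast transcripts in the Npr3+ values was not tested.

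Platelet genes were most abundant in TAC-4w. The 7 platelet genes summed to 2240 CPM in TAC-4w Vwf+ Npr3- cells, led by Pf4 at 822 CPM, and to at most 260 CPM in the other 11 sums. At least 2 platelet UMIs were found in 22 of those 112 cells, in 50 of the 266 capillary cells and in 3 of the 5 Npr3+ cells of TAC-4w, so the transcripts were not limited to the Vwf+ Npr3- cells. Without such cells 544 genes were higher and 908 lower in Npr3+ than in Vwf+ Npr3- cells, and 406 and 332 in Vwf+ Npr3- than in capillary cells. The red cell genes summed to 7023, 4195, 287 and 39.2 CPM in Npr3+ cells and 32114, 15911, 7073 and 251 CPM in capillary cells, and all 5 were lower in Npr3+ cells, as were all 6 cardiomyocyte genes tested. Of the macrophage, B cell and neutrophil genes tested (3, 2 and 2), none passed the test in any comparison of the groups. T cell and glial genes were too low to test, and the mesothelial gene Wt1 was lower in Npr3+ cells in both comparisons. The part of these transcripts in the results was not tested.

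How the members differed between conditions is given by ratios of CPM to sham with exact counting intervals, among genes that reached 20 UMIs in at least 1 of the sums compared. Over all members, 100 of 8470 genes were at least 2-fold higher (1.18%) and 169 at least 2-fold lower (2.00%) in TAC-2w. In TAC-4w 1032 of 8737 were higher (11.8%) and 1060 lower (12.1%), and in TAC-6w 535 of 8335 were higher (6.42%) and 1278 lower (15.3%). The Npr3+ share of the members differed as well, at 85.6%, 81.2%, 4.27% and 37.0%, and its part in these ratios was not tested. In TAC-4w members Comp was at 0.002 of sham (1 UMI against 607), Ptgs2 at 0.003, Ephx2 at 0.003 and Ahsg at 0.007, and Pde3a had no UMI against 465. Other genes called higher in Npr3+ cells were present in the TAC-4w members, with Emcn at 589 CPM, Eng at 1073 CPM, Fabp5 at 822 CPM and Plvap at 223 CPM.

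Among TAC-4w members the largest ratios belonged to platelet genes, Ppbp (203, interval 69.1 to 990), Nrgn (141), Gp9 (122) and Itga2b (109), and to Aplnr, the apelin receptor (127, 22.2 to 5066). Aplnr had 1 UMI in sham members. Its ratio was 14.7 within Vwf+ Npr3- cells and 1.22 within capillary cells. In TAC-6w members Cyp26b1, which breaks down retinoic acid, was 43.2 times sham (21.8 to 95.2), with Prg4, Col8a1, Lmo1 and Sema3g also higher, and Hpgd, a prostaglandin dehydrogenase, was at 0.033 of sham (0.004 to 0.120), with Dbp, Pkhd1l1, Fgl2 and Lcn2 also lower. Cyp26b1 was also higher within the TAC-6w Vwf+ Npr3- cells (10.1 times sham) and within capillary cells (13.1), and Hpgd lower within Npr3+ cells (0.077). Prg4, Col8a1, Lmo1 and Sema3g were 40.0, 16.0, 13.1 and 12.6 times sham over all members. Within Vwf+ Npr3- cells they were 11.3, 3.10, 2.91 and 2.41 times. In TAC-2w members the transport protein Fabp3 (10.4, 3.14 to 54.0), the pericyte genes Rgs5 (37.9), Vtn (40.6) and Rgs4 (at least 12.6) and Cyp1a1 (27.1) were higher, and the leukocyte genes F13a1, Fcgr3, Plac8, Il1b and Cd52 were lower.

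Within Npr3+ cells 76 of 8060 genes were at least 2-fold higher (0.943%) and 194 at least 2-fold lower (2.41%) at TAC-2w. Of 9 endocardial genes measured, none was past 2-fold in either direction. The named genes that were higher were Vtn, Rgs5, Rgs4, the cell cycle gene Ube2c and the cardiomyocyte gene Myl2, and those that were lower were Il1b, Cd52, Fcgr3, Aif1 and Hk2. Rgs5 stood at 61.7 CPM in TAC-2w against 1.57 CPM in sham Npr3+ cells, beside 365 and 486 CPM in capillary cells. Apart from Hk2 and Ube2c, these are genes of pericytes, cardiomyocytes and leukocytes, whose summed levels moved the same way (macrophage genes 469 CPM in sham and 87.0 CPM in TAC-2w), and their part in the result was not tested. Angpt2, the Tie2 ligand of activated endothelium, was 3.41 times sham.

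At TAC-6w, where 17 Npr3+ cells were summed, 502 of 7960 genes were at least 2-fold higher (6.31%) and 1093 lower (13.7%), and with 102096 UMIs against 1909887 in sham many of these ratios rest on few UMIs. H19 was 3.70 times sham in Npr3+ cells (3.19 to 4.28), while over the remaining kept barcodes it was 0.168 times sham. Ptgs2 was at 0.126 of sham. Cxcl1, a neutrophil chemokine, was 5.94 times sham (4.05 to 8.54) in Npr3+ cells and 0.334 times in Vwf+ Npr3- cells. Trim37, Tec, Tmem250-ps and Thsd7a were also higher, and Pkhd1l1, Gem, Hpgd, Lyz2 and C1qb lower. Markers of other cell types were lower too. These were 3 of 4 measured macrophage genes (C1qb, C1qa and Lyz2, list median 0.093 of sham) and 4 of 5 red cell genes (list median 0.014). Of 7 fibroblast genes, 3 (Col3a1, Gsn and Col1a1) were lower. The part of these transcripts in the result was not tested. Of 9 endocardial genes measured, Tmem100, a BMP target, was the one past 2-fold (higher).

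Within Vwf+ Npr3- cells, 119 of 2401 genes were higher (4.96%) and 99 lower (4.12%) at TAC-2w, 914 of 7195 higher (12.7%) and 271 lower (3.77%) at TAC-4w, and 115 of 2116 higher (5.43%) and 190 lower (8.98%) at TAC-6w. Igfbp5, a binding protein of insulin-like growth factor, was 10.3 times sham at TAC-2w (5.70 to 20.5) and 10.1 times at TAC-6w (5.50 to 20.4), beside 9.47 and 1.08 times sham in capillary cells. Cytl1 was lower by at least 2-fold at all 3 times, from 2305 CPM in sham to 920, 175 and 768 CPM. Lyve1, a hyaluronan receptor, was at 0.046 of sham at TAC-2w. At TAC-4w 9 of 13 measured capillary genes were higher and none lower, Selp, Sele, Vcam1 and Icam1 were lower, and all 7 platelet genes were higher, led by Pf4 (207, 37.1 to 8195). The neutrophil genes S100a8 and S100a9 (14.4 and 7.45 times sham) and the B cell gene Igkc (15.6 times) had higher values too, as did Lyz2 of macrophages (140 CPM against 43.6 CPM). At least 2 neutrophil UMIs were found in 67 of the 112 cells against 0 of 26 in sham, and in 144 of the 266 TAC-4w capillary cells. The part of these transcripts in the result was not tested. The share of cells with capillary genes moved alongside, at 92 of 112 in TAC-4w against 11 of 26 in sham. It was 17 of 22 in TAC-2w and 16 of 29 in TAC-6w. The other times showed some of the same: 5 of 11 measured capillary genes were higher at TAC-2w and 2 of 9 at TAC-6w, with none lower. Sele, Vcam1 and Icam1 were lower at TAC-6w as well. Lrg1 was 6.07 times sham at TAC-6w (3.77 to 10.2), beside 5.11 times in capillary cells, where sham held 2 UMIs.

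The heart sections gave a readout of Npr3 and Vwf in place, in spots that each cover several cells. Npr3 stood at 3.81, 5.48, 5.45 and 4.56 CPM in the 4 sections (95% counting intervals 3.10 to 4.64, 4.84 to 6.17, 4.67 to 6.32 and 3.97 to 5.20), with a UMI in 5.31%, 9.79%, 11.5% and 8.39% of 1676, 2063, 1228 and 2193 spots. By Npr3 CPM over all spots the TAC-4w section was thus not below sham, whereas the TAC-4w library held the fewest Npr3+ cells. These are unlike measures, since spots hold cells of any type, and fibroblasts also gave Npr3 UMIs. Median spot depth was 15488 UMIs in the sham section and 27593 UMIs in that of TAC-4w. Vwf stood at 22.8, 24.1, 27.4 and 32.3 CPM. Sections are single too, and the labels put sham and TAC-2w in batch 1, TAC-4w in batch 2 and TAC-6w in batch 3.

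Spots with an Npr3 UMI were compared with the other spots of the same section. Cytl1 was 4.99, 4.59, 3.73 and 4.04 times higher in them, Plvap 3.08, 5.86, 3.58 and 2.53 times, Smoc1 6.15, 5.78, 3.80 and 4.54 times, and Vwf 2.06, 3.51, 2.84 and 2.97 times. Of 8 measured endocardial genes, 3 (Cytl1, Plvap and Smoc1) had counting intervals above 1 in all 4 sections. Fabp4, Cd36 and Lpl lay between 0.944 and 1.08, with the intervals of Fabp4 in sham and TAC-2w and of Lpl in TAC-2w and TAC-4w not including 1, and the 14 capillary genes had none above 1 in all 4 sections. The ratios of Cytl1 were above 1 in 4 of 4 sections (mean log2 ratio 2.11 ± 0.19 SD), for which the exact two-sided sign-flip test gave p = 0.125, the smallest that 4 sections allow. For Vcam1 the ratios were 1.50, 2.81, 1.66 and 1.25, and the sham and TAC-6w intervals included 1. Spots with Npr3 had median depths of 19931, 23904, 29043 and 31134 UMIs against 15238, 24635, 27291 and 18701 in the others.

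**Figure D5:**
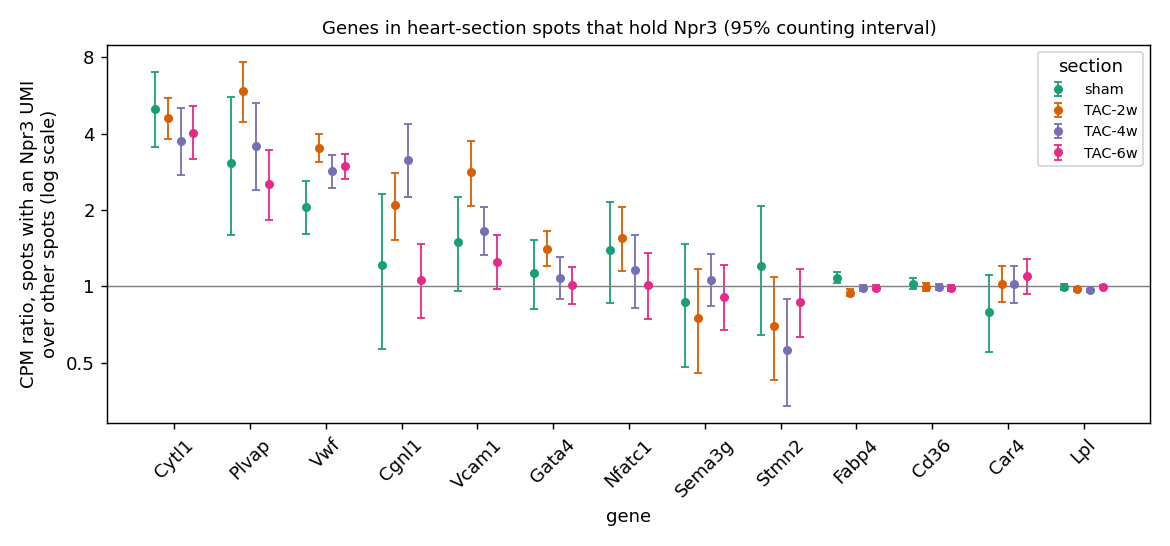
Ratio of CPM in spots with an Npr3 UMI to CPM in the other spots of the section (log scale) for 13 genes, 1 point for each of the 4 sections with its 95% counting interval. Cytl1, Plvap and Vwf lie above 1 in all 4 sections, whereas Fabp4, Cd36 and Lpl lie near 1, between 0.944 and 1.08.

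Position in the section was read from the neighbours of a spot, with edge spots having fewer than 6 neighbours over tissue. The edge to interior ratio of Npr3 was 0.870, 0.633, 0.787 and 1.25 (intervals 0.433 to 1.60, 0.356 to 1.05, 0.430 to 1.34 and 0.796 to 1.89) and that of Vwf 1.01, 1.00, 1.08 and 1.11. Every interval included 1, so no enrichment of either gene at the tissue edge was detectable at this depth, with 99 to 267 Npr3 UMIs in a section. With fewer than 5 neighbours as the limit the ratios were 0.903, 0.449, 0.904 and 1.57 for Npr3 and 0.761, 0.797, 1.11 and 1.04 for Vwf, for which no intervals were computed.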

How the data were processed

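UMI counts of 32285 genes were deposited by the authors as filtered matrices, 1 for each of the 4 single-cell libraries and 4 Visium sections. The file headers name cellranger 6.0.0 and spaceranger 1.2.0, and the submitters' processing notes name Cell Ranger 7.0.0 and Space Ranger 1.3.1 with build mm10. The labels speak of nuclei and the study's methods of cells. The members and gene lists were chosen with earlier results of these data known.

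Counts were summed by library and cell group. Sums of fewer than 10 cells were left out, genes with at least 10 UMIs in at least 3 sums were kept, and edgeR 4.0.16 (R 4.3.3, TMM, library as a block, quasi-likelihood test, Benjamini-Hochberg adjustment) was run on 11 sums. Calls between Vwf+ Npr3- and capillary cells cover 4 libraries. Those on Npr3+ cells cover sham, TAC-2w and TAC-6w only. P-values measure the spread between these sums. The 9 genes of the rule stayed in the totals and were not tested. A gene could pass the count filter through the sums of 1 group alone, as Nrg1 did through Npr3+ cells. Folds are ratios of pooled CPM with exact 95% counting intervals, and a sum of 0 was set to 3 UMIs for a bound and never called the higher one.

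Named genes had an adjusted p under 0.05 and 1 direction in every library fitted, and were taken from both ends of the ranking by log2 fold change, 10 from each, leaving out rule, mitochondrial, ribosomal, haemoglobin, immunoglobulin and predicted genes. For TAC against sham they were the 5 largest and 5 smallest ratios. From the lists, examples were the more abundant genes, and Bmx, Emcn, Tfpi, Vegfc and the pathway genes given with values were chosen after their values were seen. The genes closest to Npr3 or Vwf were those with a UMI in at least 10% of members.

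Doublets were kept, and removing the 3.2% of barcodes with the highest Scrublet score (scanpy 1.11.5) was an alternative, as were DESeq2 1.42.0, other filters, thinning and left-out libraries. The scripts (pandas 2.3.3, scipy 1.17.1 and numpy 2.4.6 under Python 3.11.15) were tested on simulated data. Promoters came from RefSeq tables. Some genes are not reported here.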

Additional observations from a re-analysis of the deposited data

How the results depend on the processing

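No named gene changed direction under an alternative in which it could be fitted, and not every gene could be: with cells thinned, 24 of 90 named values were obtained. Of the values of single named genes, 763 kept their direction and call or stayed within counting error, 31 moved and 27 lost their call. Without 1 library at a time, 238 to 474 genes were higher and 523 to 788 lower in Npr3+ than in Vwf+ Npr3- cells, 604 to 1146 and 837 to 1370 in Npr3+ than in capillary cells, and 251 to 410 and 182 to 361 in Vwf+ Npr3- than in capillary cells. With cells thinned to 1000 UMIs the counts were 96 and 181, 352 and 394, and 103 and 107, in the same order. With cells holding transcripts of other cell types left out they were 55 and 107, 188 and 226, and 138 and 120, on 8 sums of which sham alone held Npr3+ cells. Leaving out Vwf+ Npr3- cells with at least 3 UMIs of Gpihbp1 and Rbp7, an alternative chosen after seeing the data, gave 170 and 315 for the first comparison. For Vwf+ Npr3- against capillary cells DESeq2 gave 245 lower genes, and the fit with no replicate block gave 212 higher and 182 lower. With no block the other counts stayed within 1.5 times (505 and 836, and 935 and 1213).

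DESeq2 lost the calls on Nrg1 (both comparisons), Adh6b and Rgs4. The alternative without cells holding other cell types' transcripts, with Npr3+ cells from sham alone, lost Sema7a, Gja5, Eps8l2, Alpl, Nos2, Ssu2 and Apln. That without Vwf+ Npr3- cells holding capillary genes lost Serpini1, Birc5, Prc1, Cdca8, Rgs4, Prnd, Tpx2 and Cdk1. Prc1 was also lost without TAC-4w and Birc5 without TAC-6w. The cause was not tested.

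The share of members was 0.786%, 0.7935%, 0.219% and 0.225% with cells thinned before the rule, which put TAC-2w marginally above sham and TAC-4w level with TAC-6w, and 40.1%, 22.3%, 24.0% and 21.6% of barcodes passing the endothelial conditions. In TAC-4w it was 1.17% with at least 5 UMIs of Npr3 and Vwf and 0.964% with mitochondrial shares under 5%. The Npr3+ share was 88.1% in TAC-2w under that limit and 0% in TAC-4w after thinning. For TAC against sham, thinning gave 13 genes higher and 66 lower at TAC-2w, 209 and 260 at TAC-4w, and 88 and 227 at TAC-6w. Without cells holding other cell types' transcripts 169 were higher at TAC-2w, 376 higher and 223 lower at TAC-4w, and 258 and 238 at TAC-6w. In Vwf+ Npr3- cells alone, chosen after seeing the data, 99 were lower at TAC-2w, 271 lower at TAC-4w, and 115 higher and 190 lower at TAC-6w.

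In the sections, leaving mitochondrial and ribosomal RNA features out of the total put Npr3 at 7.90, 9.72, 9.46 and 8.20 CPM and Vwf at 47.2, 42.8, 47.6 and 58.2 CPM. With edge spots having fewer than 5 neighbours the Vwf ratio was 0.761 in sham and 0.797 in TAC-2w, below 1 where it had been 1.01 and 1.00, and the Npr3 ratio 0.449 in TAC-2w and 1.57 in TAC-6w. Depth limits what the 17 Npr3+ cells of TAC-6w and the 5 of TAC-4w can show. Pooled folds of Vwf+ Npr3- cells with a library left out, and the correlations with Npr3 and Vwf without TAC-4w, were added after seeing the data.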

Other observations

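Immediate early genes, which respond within minutes to stress and also to tissue digestion, were among the most abundant transcripts of the members. The 11 genes summed to 18802, 19179, 6916 and 11332 CPM in Npr3+ cells, 11459, 13373, 5992 and 9858 CPM in Vwf+ Npr3- cells and 14313, 11628, 3425 and 8313 CPM in capillary cells. TAC-4w was the lowest library in all 3 groups. By edgeR's quasi-likelihood test Junb, Egr1, Ier2 and Zfp36 were higher and Dusp1 lower in Npr3+ than in Vwf+ Npr3- cells, while Fos did not pass (log2 fold change -0.23 ± 0.22 SE, adjusted p = 0.598). Fos stood at 3115, 2907, 494 and 1019 CPM in Npr3+ cells and at 2549, 2191, 283 and 1049 CPM in capillary cells.

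MHC class II genes, which present antigen to T cells, summed to 869, 135, 79.7 and 108 CPM in Npr3+ cells. All 4 measured were at least 2-fold lower than sham at TAC-2w and at TAC-6w, with median ratios of 0.152 and 0.154. Macrophage genes summed to 469, 87.0, 15.9 and 39.2 CPM in the same cells, and their part in the result was not tested. Of 12 interferon and MHC class I genes, 4 (Ifit1, Irf7, Psmb8 and Gbp2) were lower in Npr3+ than in Vwf+ Npr3- cells. None of 6 cell cycle genes passed the test between the member groups, and all 6 were lower in Npr3+ than in capillary cells.

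Of 3 lymphatic genes tested, Lyve1 was higher in Npr3+ cells, at 437, 509, 31.9 and 392 CPM against 171, 7.93, 13.8 and 35.7 CPM in Vwf+ Npr3- cells (2.37 ± 0.59, edgeR adjusted p = 0.00678). Prox1, the transcription factor of lymphatic identity, stood at 70.2, 81.0, 0 and 29.4 CPM in Npr3+ cells, where Pdpn and Mmrn1 had no UMI in any library. Mmrn1 was called lower in Npr3+ cells, although it also had no UMI in the Vwf+ Npr3- cells of the 3 libraries compared, so that call rests on other sums of the fit.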
